A study of Rattus norvegicus with 15 samples.

Results

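The enzymes of the citrate cycle were followed in rat kidney grafts and native kidneys. The members were 9 genes, Cs, Aco1, Idh1, Idh2, Idh3a, Ogdh, Suclg1, Mdh1 and Mdh2, and every probe set that carries 1 of these symbols alone was taken. This gave 14 of the 31042 tested probe sets and 9 of the 14217 genes named in this way. Levels were MAS5 signals of Affymetrix Rat Genome 230 2.0 arrays, in arbitrary units scaled by the authors to a common mean on each array. Of the 14 probe sets, 12 were bright, meaning that their signal averaged 100 or more over the 15 arrays. The other 2, Cs 1396453_at and Idh1 1394886_at, averaged under 15 in every group.

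The study compared allogeneic grafts (aTX, 5 kidneys), in which kidneys of Lewis-Brown-Norway (LBN) rats were placed in Lewis (LEW) rats, with syngeneic grafts (sTX, 5 kidneys), in which LBN kidneys were placed in LBN rats, and with native LBN kidneys (ctr, 5 kidneys). Animals were male and 10 to 12 weeks old, and recipients had both of their own kidneys removed just before transplantation. The grafts were taken on day 4, and the LBN-into-LEW combination is a model of acute rejection. The design text describes the control kidneys as the second kidneys of donors, so grafts and controls can come from the same animal. 1 label field calls sTX 4 and sTX 5 allogeneic, against their titles, so results were also computed without sTX 4 and 5. The source names give other strains than the design text. Groups were taken from the titles, and leaving out sTX 4 and 5 does not address this conflict over strains. The instrument record of each array gives a hybridization date and time, and all arrays share the same day. Ordered by the hour of that time, the arrays fall into 2 sets. They are called wash runs here as a short name only, since the recorded hour of hybridization alone defines them. All ctr arrays and aTX 2, 3 and 4 were in run 1, and all sTX arrays and aTX 1 and 5 were in run 2, so no run holds both sTX and ctr.

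The citrate cycle runs in the mitochondrial matrix, where it oxidises the acetyl group of acetyl-CoA to carbon dioxide and passes the electrons to the respiratory chain. Isoenzymes outside the matrix, such as Aco1, Idh1 and Mdh1 in the cytosol, carry out the same reactions on exported intermediates and supply NADPH or shuttle reducing equivalents. The tubule cells of the kidney, above all those of the proximal tubule, are rich in mitochondria because reabsorption of salt and solutes consumes much ATP.

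In aTX kidneys, the brightest probe set of each of the 9 genes was lower than in ctr and lower than in sTX kidneys, with Aco1 (2.96-fold lower than in ctr), Idh1 (2.06-fold) and Ogdh (1.89-fold) changed most. A second probe set of Cs was higher in aTX than in ctr. In whole kidney RNA, fewer cells of a type and less RNA per cell cannot be told apart. Over all 14 probe sets, 10 fell, 1 rose and 3 did not pass the test in aTX against ctr (limma, adjusted p below 0.05 over all tested probe sets), against 22.2% of all probe sets lower and 20.2% higher. In aTX against sTX, 10 fell, 0 rose and 4 did not pass, against 22.1% lower and 13.9% higher overall. In sTX against ctr, 2 fell, 1 rose and 11 did not pass, against 6.32% lower and 11.4% higher overall. Since bright probe sets were called more often, the share among bright probe sets was also taken. Of the bright ones, 10 of the 12 member probe sets were lower in aTX than in ctr, against 40.4% of all such probe sets, and 10 of 12 were lower in aTX than in sTX, against 38.6%. In sTX against ctr, 2 of 12 were lower, against 16.6%.

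The median log2 change of the 14 probe sets was -0.45 between aTX and ctr, -0.40 between aTX and sTX and -0.02 between sTX and ctr. The medians over all probe sets were -0.07, -0.18 and 0.09 in the same comparisons. The scaling moves these last values. When every array was centred on its median signal, aTX against ctr gave 5547 higher and 7661 lower probe sets, which differs little from the 6268 higher and 6890 lower of the deposited scaling. In sTX against ctr, the same change gave 1812 higher and 4724 lower, where the deposited scaling gave 3539 and 1961 and quantile normalization gave 2807 and 2388. In aTX against sTX, median centring gave 5427 higher and 5242 lower, where the deposited scaling gave 4327 and 6857. With median centring, 10 member probe sets were still lower in aTX than in ctr and 1 was higher, 7 were lower and 1 higher in aTX than in sTX, and 5 were lower and 0 higher in sTX than in ctr.

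No array of aTX overlapped any array of ctr for 11 of the 14 member probe sets, against 33.2% of all probe sets. The groups were as fully separated for 11 of 14 in aTX against sTX, against 29.1%, and for 2 of 14 in sTX against ctr, against 13.2%. Bright probe sets were separated more often, for 64.5% of all of them in aTX against ctr (10 of 12 members), 57.9% in aTX against sTX (10 of 12 members) and 25.6% in sTX against ctr (2 of 12 members). Each pair of these comparisons shares the arrays of 1 group. Within wash run 1, 9 member probe sets were lower and 1 higher in aTX than in ctr, against 19.4% of all probe sets lower and 17.1% higher. Within wash run 2, 10 were lower and 0 higher in aTX than in sTX, against 16.5% lower and 11.6% higher. With the wash run as a block, limma called 0 members in sTX against ctr, against 0.821% of all probe sets lower and 2.30% higher, and 2 of the 14 had an unadjusted p below 0.05. As no run holds both groups, this blocked comparison rests on the aTX arrays of each run and is less precise. Aco1, for example, went from a log2 change of -0.49 (limma, adjusted p = 0.000193) to -0.47 (adjusted p = 0.0907). The lost calls thus cannot tell a run effect from lost precision. Without sTX 4 and 5, 9 were lower and 0 higher in aTX than in sTX, against 17.8% lower and 12.1% higher. The same fit had 3 lower and 0 higher in sTX than in ctr, against 5.67% lower and 9.77% higher.

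**Figure D1:**
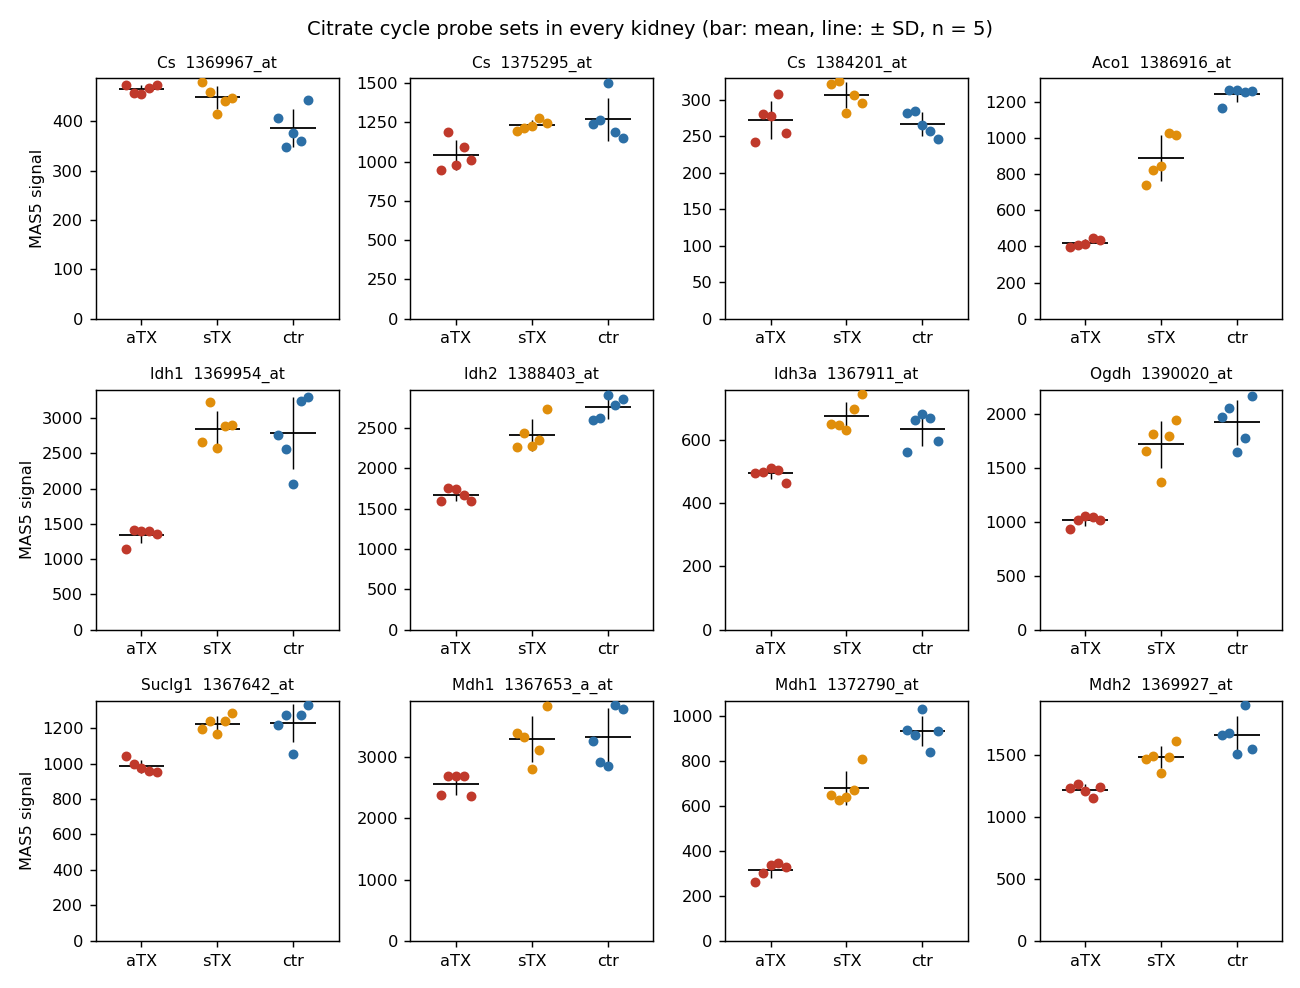
MAS5 signal (linear axis from 0) of the 12 bright member probe sets, with 1 point per kidney in aTX, sTX and ctr, the bar at the mean and the line at ± SD (n = 5 each). All aTX points lie under all ctr points except for the 3 Cs probe sets shown, and Aco1 and Mdh1 1372790_at show sTX between aTX and ctr.

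Citrate synthase (Cs), which joins acetyl-CoA to oxaloacetate at the entry of the cycle, was the only member whose probe sets disagreed in direction. Cs 1375295_at had signals of 947.2, 1186.6, 980.0, 1091.3 and 1008.5 in aTX, 1196.8, 1216.9, 1223.7, 1278.3 and 1248.5 in sTX, and 1236.8, 1265.6, 1501.8, 1187.1 and 1150.1 in ctr. The aTX arrays lay below all sTX arrays and overlapped ctr only through aTX 2 and the lowest ctr array. Its log2 change was -0.28 ± 0.08 (SE) in aTX against ctr (limma, adjusted p = 0.00496), -0.25 in aTX against sTX (adjusted p = 0.0149) and -0.03 in sTX against ctr (adjusted p = 0.819). The first call was lost with quantile normalization (adjusted p = 0.0569) and within wash run 1 (adjusted p = 0.0935). The call against sTX was lost without sTX 4 and 5 (adjusted p = 0.0813) and with median centring (adjusted p = 0.289).

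Cs 1369967_at had signals of 472.8, 457.9, 456.2, 468.0 and 473.0 in aTX, 480.3, 459.4, 414.9, 440.4 and 446.5 in sTX, and 406.4, 348.8, 375.5, 359.6 and 443.7 in ctr. Here all aTX arrays were above all ctr arrays, and sTX overlapped both. This probe set rose by 0.27 ± 0.07 (SE) on the log2 scale in aTX against ctr (limma, adjusted p = 0.00216) and by 0.22 in sTX against ctr (adjusted p = 0.029). The sTX call was lost with median centring (log2 change 0.02, adjusted p = 0.858) and when the wash run was a block (adjusted p = 0.523). It was also lost without sTX 4 and 5 (adjusted p = 0.0718), without an intensity trend (adjusted p = 0.0739), with only these groups in the fit (adjusted p = 0.0648) and in the methods' t-test after Benjamini-Hochberg adjustment. In aTX against sTX its log2 change was 0.06 (adjusted p = 0.57), and 0.18 with a call with median centring (adjusted p = 0.0285). The third bright probe set, Cs 1384201_at, averaged 273 ± 25.6 in aTX, 307 ± 18.0 in sTX and 268 ± 16.4 in ctr (SD, n = 5 each), and did not pass the test in any of the comparisons. In aTX against sTX its log2 change was -0.17 (adjusted p = 0.0723). Blocking on the wash run gave -0.30 and a call (adjusted p = 0.0111), and it also passed within wash run 2 (-0.30, adjusted p = 0.0227), with quantile normalization and among bright probe sets alone. That last setting also called it higher in sTX than in ctr (0.20, adjusted p = 0.0352). The low Cs 1396453_at averaged 11.8 ± 6.54 in aTX, 14.6 ± 10.5 in sTX and 13.7 ± 2.58 in ctr (SD, n = 5 each) and did not pass either. Within each array, the log2 ratio of Cs 1369967_at to Cs 1375295_at was 0.55 higher in aTX than in ctr (exact permutation test, two-sided, p = 0.00794, the smallest possible, adjusted p = 0.0198 over 15 ratio tests). This pair sets a probe set called higher over a probe set called lower and was chosen after its values were seen. Its p value is therefore no independent support. The probe set that rose, 1369967_at, was built on a RefSeq mRNA, and the other 3 on other GenBank records. Which of them follows the transcript of citrate synthase best was not tested.

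Aconitase 1 (Aco1), the cytosolic enzyme that turns citrate into isocitrate and that, without its iron-sulfur cluster, binds iron-responsive elements of RNA, showed one of the 2 greatest falls in aTX against ctr. Its signals were 396.4, 410.7, 412.9, 447.7 and 436.1 in aTX, 740.2, 821.8, 844.6, 1026.9 and 1019.1 in sTX, and 1165.4, 1267.8, 1265.5, 1257.5 and 1259.6 in ctr. The 3 groups did not overlap, with aTX lowest, sTX between and ctr highest. The level was 2.96-fold lower in aTX than in ctr (log2 change -1.56 ± 0.08 SE, limma adjusted p = 3.57e-12), 2.1-fold lower in aTX than in sTX (adjusted p = 1.97e-09) and 1.41-fold lower in sTX than in ctr (adjusted p = 0.000193). With the wash run as a block, the change of sTX against ctr was -0.47 on the log2 scale and no longer passed (adjusted p = 0.0907).

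The isocitrate dehydrogenases release the first carbon dioxide of the cycle. Idh1 is the NADP-linked enzyme of cytosol and peroxisomes, Idh2 its matrix counterpart, and Idh3a the catalytic subunit of the NAD-linked enzyme that serves the cycle itself. Idh1 1369954_at had signals of 1140.5, 1409.2, 1392.7, 1393.0 and 1356.6 in aTX, 2656.2, 3222.8, 2570.8, 2890.6 and 2894.0 in sTX, and 2763.6, 2555.8, 2066.3, 3246.5 and 3291.7 in ctr. Every aTX array lay below every other array, while sTX lay within the wide range of ctr. Idh1 was 2.06-fold lower in aTX than in ctr (log2 change -1.04 ± 0.11 SE, limma adjusted p = 1.16e-07) and 2.13-fold lower in aTX than in sTX (adjusted p = 1.21e-07), and the log2 change of sTX against ctr was 0.05 (adjusted p = 0.829). The low Idh1 1394886_at averaged 3.36 ± 1.22 in aTX, 6.44 ± 1.47 in sTX and 6.04 ± 0.956 in ctr (SD, n = 5 each). Its log2 changes of -0.94 in aTX against ctr (adjusted p = 0.0772) and -1.02 in aTX against sTX (adjusted p = 0.0625) did not pass the test.

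Idh2 had signals of 1588.9, 1755.2, 1738.1, 1673.5 and 1599.6 in aTX, 2263.2, 2437.9, 2280.6, 2350.1 and 2739.3 in sTX, and 2601.4, 2616.9, 2908.6, 2787.5 and 2859.3 in ctr. The aTX arrays stood below all others, and only sTX 5 reached into the ctr range. Idh2 was 1.65-fold lower in aTX than in ctr (limma, adjusted p = 2.93e-08) and 1.44-fold lower in aTX than in sTX (adjusted p = 3.42e-06). Its log2 change of -0.19 in sTX against ctr did not pass (adjusted p = 0.06). It passed with median centring (-0.39, adjusted p = 0.000686), with quantile normalization (adjusted p = 0.0212), among bright probe sets alone (adjusted p = 0.0197), without sTX 5 (-0.24, adjusted p = 0.0174) and without sTX 4 and 5 (adjusted p = 0.0355), and was -0.08 with the wash run as a block (adjusted p = 0.812).

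Idh3a had signals of 496.0, 498.7, 512.4, 505.3 and 465.1 in aTX, 650.1, 646.8, 632.7, 698.6 and 745.1 in sTX, and 561.3, 662.1, 682.0, 668.1 and 595.3 in ctr. The aTX arrays were again the lowest, and the other groups overlapped. The fall was smaller than for Idh1 and Idh2, 1.28-fold in aTX against ctr (limma, adjusted p = 2e-04) and 1.36-fold in aTX against sTX (adjusted p = 2.14e-05). The log2 change of sTX against ctr was 0.09 (adjusted p = 0.41).

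Because Idh1 and Idh2 catalyse the same reaction in different compartments, their ratio within each array was compared. This ratio was chosen after its values were seen, so its p values are no independent support. It was 0.56 lower on the log2 scale in aTX than in sTX, with no overlap (exact permutation test, two-sided, p = 0.00794, adjusted p = 0.0198). The difference was -0.32 in aTX against ctr (exact p = 0.0556, adjusted p = 0.0833) and 0.24 in sTX against ctr (exact p = 0.103, adjusted p = 0.129), and neither passed. Idh1 thus changed more than Idh2 between aTX and sTX. Of the ctr arrays, ctr 3 lay below every aTX array and the other 4 lay above every aTX array.

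Ogdh is the decarboxylating subunit of the alpha-ketoglutarate dehydrogenase complex. Its signals were 932.2, 1016.9, 1053.1, 1047.2 and 1013.2 in aTX, 1656.3, 1816.5, 1367.5, 1792.7 and 1944.8 in sTX, and 1968.5, 2053.2, 1646.1, 1779.6 and 2162.6 in ctr. All aTX arrays were well below the lowest sTX array, and sTX overlapped ctr. Ogdh was 1.89-fold lower in aTX than in ctr (log2 change -0.92 ± 0.09 SE, limma adjusted p = 4.9e-08) and 1.68-fold lower in aTX than in sTX (adjusted p = 1.35e-06). The log2 change of sTX against ctr was -0.17 (adjusted p = 0.24). It was -0.36 and passed with median centring (adjusted p = 0.00698), and was -0.07 with the wash run as a block (adjusted p = 0.892).

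Suclg1, the subunit that the GTP- and ATP-forming succinyl-CoA ligases share, showed the smallest change in aTX against ctr among the genes with 1 probe set. Its signals were 1044.5, 996.2, 976.4, 960.0 and 952.9 in aTX, 1196.0, 1239.0, 1165.1, 1238.2 and 1282.3 in sTX, and 1217.6, 1274.8, 1052.0, 1271.5 and 1328.0 in ctr. The groups were separated narrowly, since ctr 3 lay just above aTX 1. Suclg1 was 1.24-fold lower in aTX than in ctr (limma, adjusted p = 0.000491) and 1.24-fold lower in aTX than in sTX (adjusted p = 0.000684), with a log2 change of 0.00 in sTX against ctr (adjusted p = 0.992).

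The malate dehydrogenases close the cycle in the matrix (Mdh2) and serve the malate-aspartate shuttle from the cytosol (Mdh1). Mdh2 had signals of 1237.0, 1268.6, 1208.7, 1156.8 and 1240.8 in aTX, 1466.0, 1492.5, 1357.4, 1487.1 and 1612.5 in sTX, and 1665.9, 1676.2, 1511.2, 1902.1 and 1553.3 in ctr. The aTX arrays lay below all others. Mdh2 was 1.36-fold lower in aTX than in ctr (limma, adjusted p = 2.23e-05) and 1.21-fold lower in aTX than in sTX (adjusted p = 0.00309), and -0.16 on the log2 scale in sTX against ctr did not pass (adjusted p = 0.12), but with median centring this change was -0.36 and passed (adjusted p = 0.00197). The call against sTX was lost within wash run 2 (adjusted p = 0.0569) and with median centring (adjusted p = 0.127).

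The brighter Mdh1 probe set, 1367653_a_at, had signals of 2382.5, 2692.4, 2688.4, 2689.3 and 2360.1 in aTX, 3399.2, 3325.8, 2801.2, 3125.0 and 3842.1 in sTX, and 3260.7, 2922.2, 2850.3, 3848.2 and 3789.1 in ctr. The aTX arrays were lowest, though sTX 3 and ctr 3 came close to them. It fell 1.29-fold in aTX against ctr (limma, adjusted p = 0.00437) and 1.28-fold in aTX against sTX (adjusted p = 0.00678), the second of which was lost with median centring (adjusted p = 0.0681). Its log2 change in sTX against ctr was -0.01 (adjusted p = 0.959), with overlapping arrays.

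The other Mdh1 probe set, 1372790_at, had signals of 260.2, 302.8, 337.7, 346.5 and 329.5 in aTX, 651.8, 628.6, 641.8, 673.0 and 810.1 in sTX, and 939.5, 916.0, 1031.0, 843.3 and 935.2 in ctr. As for Aco1, the 3 groups did not overlap and sTX stood in between. The level was 2.97-fold lower in aTX than in ctr (log2 change -1.57 ± 0.09 SE, limma adjusted p = 8.03e-12), 2.16-fold lower in aTX than in sTX (adjusted p = 2.79e-09) and 1.37-fold lower in sTX than in ctr (adjusted p = 0.000711). With the wash run as a block, the change of sTX against ctr was -0.29 and did not pass (adjusted p = 0.353).

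Both Mdh1 probe sets fell in aTX, but not by the same amount. The one that fell less, 1367653_a_at, was built on a RefSeq mRNA, and 1372790_at on another GenBank record. Their log2 ratio, 1372790_at over 1367653_a_at, was 1.20 lower in aTX than in ctr and 0.75 lower in aTX than in sTX (exact permutation test, two-sided, p = 0.00794 and adjusted p = 0.0198 each), and 0.45 lower in sTX than in ctr (exact p = 0.0159, adjusted p = 0.0298). The ratio of Mdh1 to Mdh2 therefore depended on the probe set. With 1367653_a_at it differed by 0.07 in aTX against ctr (exact p = 0.516, adjusted p = 0.516), and with 1372790_at by -1.13 (exact p = 0.00794, adjusted p = 0.0198). These Mdh1 ratios were also chosen after their values were seen, so their p values are no independent support. The ratios of signal between the 3′ and 5′ ends of the actin control probe sets also differed between the groups, with means of 1.226 ± 0.058 in aTX, 1.514 ± 0.06 in sTX and 1.741 ± 0.168 in ctr (SD, n = 5 each), and those of GAPDH averaged 1.044 ± 0.025, 1.101 ± 0.024 and 1.17 ± 0.047 in the same order. The actin ratios of aTX (1.14 to 1.29) lay below all those of sTX (1.45 to 1.61) and ctr (1.54 to 1.98). They thus differ along with every comparison of aTX made here. The part of these ratios in the difference between probe sets of 1 gene, or in the other changes, was not tested.

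**Figure D2:**
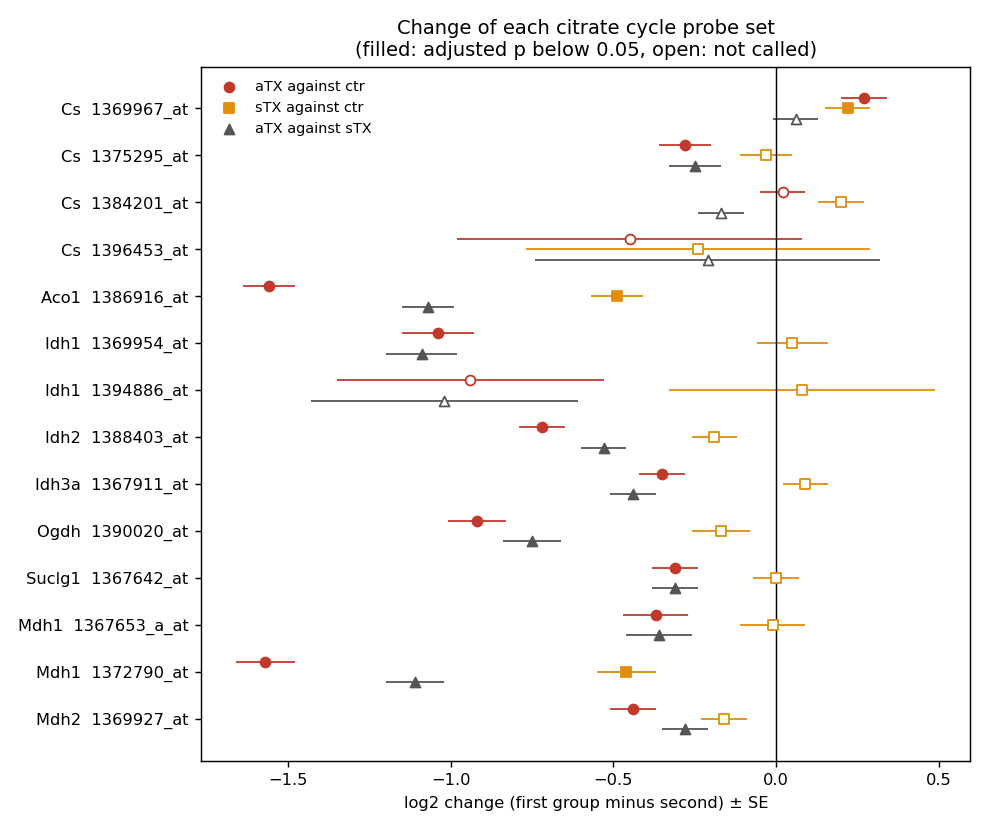
log2 change ± SE from the limma fit (x axis) for each of the 14 member probe sets (y axis), with aTX against ctr as circles, sTX against ctr as squares and aTX against sTX as triangles, filled where the adjusted p is below 0.05. Aco1 and Mdh1 1372790_at lie farthest to the left, and the sTX squares sit close to 0 for most probe sets.

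**Figure D3:**
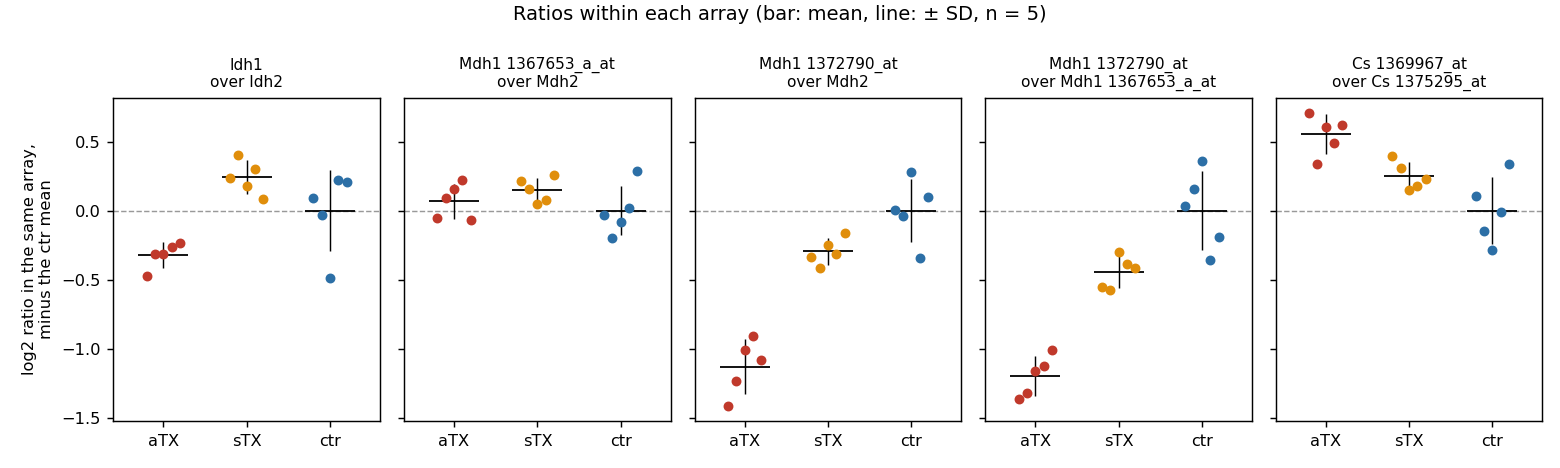
log2 ratio of 2 probe sets within the same array, minus the mean of the ctr arrays (y axis), for 5 pairs, with 1 point per kidney in aTX, sTX and ctr, the bar at the mean and the line at ± SD (n = 5 each). Both ratios with Mdh1 1372790_at on top put aTX far under ctr, while Mdh1 1367653_a_at over Mdh2 overlaps in all groups.

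Falls of different size occurred in both compartments in aTX against ctr. Among the brightest probe sets, the cytosolic Aco1 and Idh1 had log2 changes of -1.56 and -1.04 and the cytosolic Mdh1 -0.37, while the matrix enzymes ranged between -0.28 for Cs and -0.92 for Ogdh. The changes of Mdh1, Idh3a and Suclg1 (-0.37, -0.35 and -0.31) lay within 1 standard error of each other.

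The other genes of the cycle moved in the same direction. Of 10 such genes, 10 were lower in aTX than in ctr, 10 were lower in aTX than in sTX, and 1 was lower in sTX than in ctr, with a median log2 change of -0.49 in aTX against ctr. Among all bright probe sets, 40.4%, 38.6% and 16.6% were lower in the same order of comparisons. The remaining subunits of the NAD-linked isocitrate dehydrogenase, Idh3b and Idh3g, had log2 changes of -0.48 and -0.61 in aTX against ctr (limma, adjusted p = 2.94e-06 and 3.73e-06). Dlst and Dld, the partner enzymes of Ogdh in its complex, changed by -0.59 and -0.75 (adjusted p = 3.25e-07 and 3.64e-08). Suclg2 and Sucla2, the partners of Suclg1 in the GTP- and ATP-forming ligases, changed by -0.63 and -0.48 (adjusted p = 1.24e-06 and 7.74e-06), and Sucla2 was the gene lower in sTX than in ctr (log2 change -0.21, adjusted p = 0.039). The subunits of succinate dehydrogenase, which is also complex II of the respiratory chain, ranged between -0.37 for Sdhb and Sdhc and -0.50 for Sdhd in aTX against ctr.

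At the entry of pyruvate, the kinases and phosphatases that regulate pyruvate dehydrogenase went different ways. The carriers and other enzymes of this list that passed the test were all lower in aTX than in ctr. Of 12 genes, 3 were higher and 7 lower in aTX than in ctr, 1 was higher and 4 lower in sTX than in ctr, and 3 were higher and 7 lower in aTX than in sTX. Among all bright probe sets, 34.7% were higher and 40.4% lower, 19.1% and 16.6%, and 28.3% and 38.6% in the same order of comparisons. The median log2 change in aTX against ctr was -0.68. Pc, the pyruvate carboxylase that refills oxaloacetate, averaged 220 in aTX, 445 in sTX and 661 in ctr, with a log2 change of -1.60 in aTX against ctr (limma, adjusted p = 1.72e-09). The kinases that shut off pyruvate dehydrogenase were divided. Pdk1 averaged 99.6 in aTX, 44.2 in sTX and 35.4 in ctr (log2 change 1.50 in aTX against ctr, adjusted p = 7.41e-09), whereas Pdk2 averaged 510 in aTX, 995 in sTX and 1335 in ctr (log2 change -1.39, adjusted p = 1.05e-11). Pdk4 was lower in sTX than in ctr (log2 change -1.42, adjusted p = 0.00125) and did not pass in aTX against ctr (-0.64, adjusted p = 0.076). The phosphatases that switch the complex on again were divided too. Pdp1 was higher in both grafts than in ctr (0.99 in aTX, adjusted p = 1.27e-07, and 0.46 in sTX, adjusted p = 0.00399). Pdp2, named after its values were seen, averaged 187 in aTX, 339 in sTX and 321 in ctr (log2 change -0.78 in aTX against ctr, adjusted p = 5.03e-06).

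**Figure D4:**
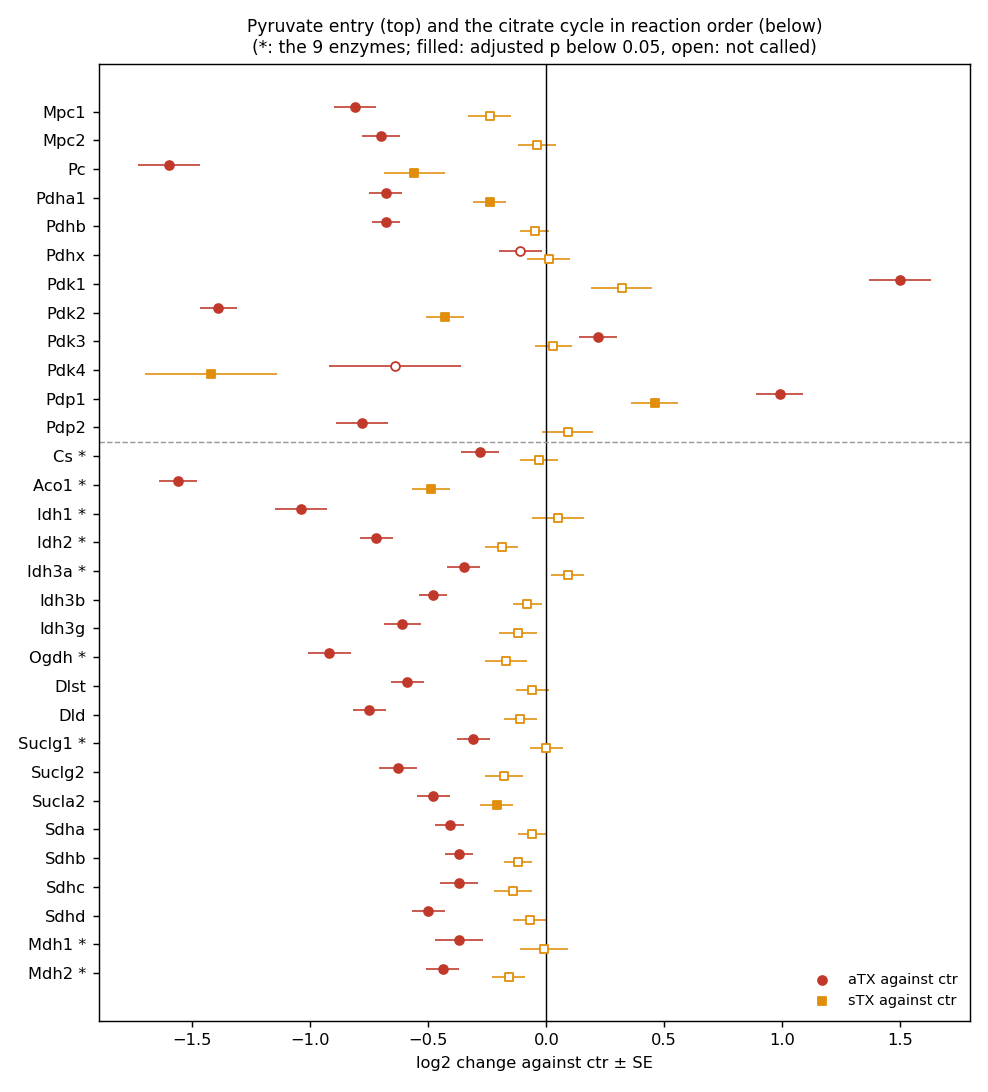
log2 change against ctr ± SE (x axis) for the genes of pyruvate entry (above the dashed line) and of the citrate cycle in reaction order (below it), with aTX as circles and sTX as squares, filled where the adjusted p is below 0.05, and a star at the 9 enzymes. Every gene of the cycle has a filled aTX circle left of 0, while Pdk1 and Pdp1 have theirs to the right.

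Reactions that feed or drain the cycle included some of the strongest changes. Of 9 genes, 1 was higher and 7 were lower in aTX than in ctr, 1 was higher and 4 lower in sTX than in ctr, and 0 were higher and 5 lower in aTX than in sTX, with a median log2 change of -0.70 in aTX against ctr. The shares of bright probe sets higher and lower were 34.7% and 40.4%, 19.1% and 16.6%, and 28.3% and 38.6% in the same order of comparisons. Me1, the cytosolic malic enzyme, averaged 139 in aTX, 428 in sTX and 587 in ctr, with a log2 change of -2.09 in aTX against ctr (limma, adjusted p = 2.17e-10). Pck1, the cytosolic carboxykinase of gluconeogenesis that takes oxaloacetate, was lower in both grafts than in ctr (-1.16 in aTX, adjusted p = 2.25e-06, and -0.81 in sTX, adjusted p = 0.000728), and the difference of -0.35 between aTX and sTX did not pass (adjusted p = 0.0834). Glud1, which turns glutamate into alpha-ketoglutarate, changed by -0.92 in aTX against ctr (adjusted p = 1.63e-10).

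Idh1 and Idh2 form NADPH, and 6 other genes with this role were followed. Of these, 1 was higher and 5 lower in aTX than in ctr, 0 were higher and 4 lower in sTX than in ctr, and 2 were higher and 4 lower in aTX than in sTX, with a median log2 change of -0.80 in aTX against ctr. Bright probe sets in general were higher and lower for 34.7% and 40.4%, 19.1% and 16.6%, and 28.3% and 38.6% in the same order of comparisons. Me1 is also on this list. The gene that was higher in aTX than in ctr was Pgd of the pentose phosphate pathway, at 703 in aTX, 382 in sTX and 375 in ctr (log2 change 0.91 in aTX against ctr, limma adjusted p = 8.97e-09). Aldh1l1, a folate enzyme, and Nnt, the transhydrogenase of the inner membrane, changed by -1.04 and -0.90 in aTX against ctr (adjusted p = 6.91e-09 and 2.18e-10).

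Of 5 partners of Mdh1 in the malate-aspartate shuttle, 3 were lower in aTX than in ctr, 2 in sTX than in ctr and 3 in aTX than in sTX, with none higher and a median log2 change of -0.46 in aTX against ctr. Among all bright probe sets, 40.4%, 16.6% and 38.6% were lower and 34.7%, 19.1% and 28.3% higher in the same order of comparisons. The aspartate-glutamate carrier Slc25a13 averaged 386 in aTX, 703 in sTX and 1019 in ctr (log2 change -1.39 in aTX against ctr, limma adjusted p = 7.43e-12). The malate carrier Slc25a11 changed by -0.67 and the cytosolic transaminase Got1 by -0.46 in the same comparison (adjusted p = 2.75e-08 and 6.57e-05). Of 8 regulators of mitochondrial genes, 2 were higher and 3 lower in aTX than in ctr, 1 was higher and 1 lower in sTX than in ctr, and 1 was higher and 4 lower in aTX than in sTX, with a median of -0.31 in aTX against ctr. The share of this list called in aTX against ctr is near that of bright probe sets in general, of which 34.7% were higher and 40.4% lower. Of all tested probe sets, 20.2% were higher and 22.2% lower, and not all genes of this list are bright. The nuclear receptor Esrrg and the coactivator Ppargc1a had log2 changes of -1.17 and -0.94 in aTX against ctr (adjusted p = 1.82e-11 and 1.48e-07), and the mitochondrial transcription factor Tfb2m -0.84 (adjusted p = 5.9e-09). The transcription factor Nrf1 was higher (0.52, adjusted p = 0.00448). Gabpa was higher in both grafts than in ctr (0.48 in aTX, adjusted p = 0.000936, and 0.52 in sTX, adjusted p = 0.00167).

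Markers of cell types also differed between the groups, though not all in the same way. All 10 leukocyte markers were higher in aTX than in sTX and 8 of 10 were higher in aTX than in ctr, with summed signals of 4121 to 5424 in aTX, 544 to 868 in sTX and 344 to 430 in ctr. Among all bright probe sets, 28.3% were higher in aTX than in sTX and 34.7% in aTX than in ctr. Among all tested probe sets these shares were 13.9% and 20.2%, and not all leukocyte markers are bright. Of 8 proximal tubule markers, 7 were lower in aTX than in ctr and 3 lower in sTX than in ctr, with sums of 6193 to 7912 in aTX, 13102 to 15033 in sTX and 14086 to 19491 in ctr. The markers of thick ascending limb were lower in aTX than in ctr for 3 of 3, those of distal tubule and collecting duct for 6 of 7, those of podocytes for 3 of 3 and those of endothelium for 3 of 3. In sTX against ctr, 0, 3, 3 and 1 of them were lower in the same order of lists. Of the distal tubule and collecting duct markers, 3 were higher in sTX than in ctr. Bright probe sets in general were lower for 40.4% in aTX against ctr and for 16.6% in sTX against ctr, where 19.1% were higher. No marker of these lists was at 0 on every array of a group. Of the leukocyte markers, 1 was under 10 on every aTX array, 1 on every sTX array and 2 on every ctr array. The median log2 change of the proximal tubule markers in aTX against ctr was -1.13, against -0.45 for the citrate cycle probe sets. The part of the markers' changes in the falls of the enzymes was not tested.

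The arrays of the members were set against all other bright probe sets with 1 symbol (7356 probe sets, 15 arrays). The mean profile of the 6 mitochondrial members correlated most with Ndufs1, a subunit of respiratory complex I (Pearson r = 0.984), Hsd17b10, a mitochondrial dehydrogenase (r = 0.983), Mrpl15, a protein of the mitochondrial ribosome (r = 0.981), and Gde1 and Dele1 (r = 0.981 each). Idh1 was most like Kgd4, a component of the complex that holds Ogdh (r = 0.986), followed by Hpd, an enzyme of tyrosine breakdown (r = 0.985), Pttg1ip (r = 0.985), Shmt1, a cytosolic enzyme of serine and glycine (r = 0.983), and Rab34 (r = 0.982). Kgd4 averaged 673 ± 48.9 in aTX, 1007 ± 32.4 in sTX and 1011 ± 62.3 in ctr (SD, n = 5 each), and Hpd 1953 ± 55.4, 3762 ± 475 and 3591 ± 467 in the same order. These correlations are descriptions, in which the difference of aTX from both other groups takes a large part.

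The promoters of 8 of the 9 genes were found in RefSeq (rat build GRCr8), without Idh3a. Since the genes moved together, the 250 bases before each start were searched on both strands for binding motifs of factors tied to mitochondrial genes. The estrogen-related receptor motif TCAAGGTCA was in 0 of 8 member promoters and in 0.388% of 33469 promoters, and the NRF1 motif GCGCATGCG was in 0 of 8 and in 1.35%. The GABP motif CCGGAAGT was in 1 of 8, Mdh2, and in 3.1% of all. Shown are the promoter of Mdh2, with the match in capitals starting 242 bases before the start (chr12:26543842-26544091, minus strand), and those of Aco1, which fell most by its brightest probe set (chr5:60055645-60055894, plus strand), and Cs, whose brightest probe set moved least (chr7:1348139-1348388, plus strand), in which no capitals are set because none of these letters were found.
Mdh2: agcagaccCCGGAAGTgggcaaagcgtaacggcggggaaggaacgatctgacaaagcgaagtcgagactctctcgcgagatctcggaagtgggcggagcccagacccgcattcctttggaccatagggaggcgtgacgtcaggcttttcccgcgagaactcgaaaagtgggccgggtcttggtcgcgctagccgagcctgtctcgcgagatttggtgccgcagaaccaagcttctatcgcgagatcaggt
Aco1: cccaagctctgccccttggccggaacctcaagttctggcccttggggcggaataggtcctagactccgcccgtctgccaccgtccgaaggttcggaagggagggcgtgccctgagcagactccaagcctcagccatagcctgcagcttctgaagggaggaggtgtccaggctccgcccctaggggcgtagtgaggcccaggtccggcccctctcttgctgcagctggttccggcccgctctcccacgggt
Cs: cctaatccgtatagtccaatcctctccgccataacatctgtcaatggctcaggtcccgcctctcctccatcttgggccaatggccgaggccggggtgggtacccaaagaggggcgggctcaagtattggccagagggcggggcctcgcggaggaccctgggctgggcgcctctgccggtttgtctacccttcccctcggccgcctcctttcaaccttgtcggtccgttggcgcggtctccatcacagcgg
A match of letters is a description of the sequence and says nothing of binding in these kidneys.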

How the data were processed

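RNA of 15 kidneys was measured on 1 array each. The values the authors deposited are linear MAS5 signal intensities, and after trimming 2% at each end their mean was 100.0 on every array, with array medians of 24.3 to 30.0. Of 31099 probe sets, 57 controls were left out. Genes were named from the platform annotation, in which 20826 probe sets carry 1 symbol, 436 several and 9780 none. A floor of 0.05 replaced the 54 signals of 0, found in 36 probe sets. The log2 signals of all 15 arrays were fitted together with limma 3.58.1 in R 4.3.3 (eBayes with an intensity trend), with Benjamini-Hochberg adjustment over 31042 probe sets and a threshold of 0.05. Fold changes are ratios of geometric means. On simulated data with normal noise, the fit found 100, 97 and 99.5% of 200 probe sets changed by a log2 of 1 in aTX against ctr, sTX against ctr and aTX against sTX, with 10, 11 and 10 false calls. The changed probe sets were drawn only from those with a geometric mean signal above 100, so recovery among dimmer probe sets was not tested.

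The members and lists were chosen with earlier results of these data known, and the ratios were chosen after their values were seen. Every member probe set is named. Of each other list, counts are over the brightest probe set of each gene, and at most 4 genes with the largest called change in aTX against ctr and 3 in sTX against ctr are named, or any gene of the cycle. Likeness is Pearson's r on log2 signals. Alternatives changed the scaling, filter, test, samples and blocks. Detection calls were not used, and the number of arrays limits the precision.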

Additional observations from a re-analysis of the deposited data

Results flagged for a closer look

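In 42 groups of 5 arrays, the gap of the highest or lowest log2 signal to its nearest neighbour was set against the range of the group, and 3 passed the critical value of 0.71, where chance gives about 1 group in 20. The Aco1 signal of ctr 1, at 1165.4, was set apart below the other ctr arrays (gap of 0.903 of the range). The Idh1 1369954_at signal of aTX 1, at 1140.5, was set apart below the other aTX arrays (0.82). The Mdh1 1372790_at signal of sTX 5, at 810.1, was set apart above the other sTX arrays (0.731). Leaving out any 1 array lost no call of these 3 probe sets, with log2 changes in aTX against ctr between -1.59 and -1.54 for Aco1, between -1.14 and -0.98 for Idh1 and between -1.61 and -1.50 for Mdh1 1372790_at.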

How the results depend on the processing

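No called change of a member reversed under any alternative. Of the settings tried for called member probe sets, 236 of 242 kept the call for aTX against ctr, 213 of 220 for aTX against sTX and 49 of 63 for sTX against ctr. Members that had not passed gained a call in 3, 10 and 8 settings in the same order of comparisons. In sTX against ctr the number of called members was 5 with median centring (0 higher, 5 lower), 5 with a mean signal of at least 100 (2 higher, 3 lower) and 0 when the wash run was a block, where 968 of all probe sets were called (713 higher, 255 lower). The methods' t-test at an unadjusted threshold of 0.001 called 7 members in aTX against ctr, and over all probe sets 7702 for aTX against ctr, 6285 for aTX against sTX and 2045 for sTX against ctr. With the signal filter, 6687, 6055 and 3550 of 8623 were called in the same order. The cause of these moves was not tested, beyond the fewer probe sets of the filter.

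The remaining reversals are of changes that did not pass. With median centring, Cs 1384201_at was -0.05 in aTX against ctr, and in sTX against ctr Idh1 1369954_at was -0.15, Idh1 1394886_at -0.11 and Idh3a -0.10. With quantile normalization, Cs 1375295_at was 0.04 and Idh1 1394886_at -0.14 in sTX against ctr, and Cs 1396453_at 0.03 in aTX against sTX. With the wash run as a block, sTX against ctr gave Cs 1375295_at 0.11, Cs 1396453_at 0.36, Idh1 1394886_at -0.44 and Mdh1 1367653_a_at 0.17, and without sTX 4 and 5 Cs 1396453_at was 0.06. Leaving out 1 array at a time gave -0.02 to 0.07 for Cs 1384201_at and -0.73 to 0.00 for Cs 1396453_at in aTX against ctr, and -0.61 to 0.24 for Cs 1396453_at in aTX against sTX. In sTX against ctr it gave -0.07 to 0.03 for Cs 1375295_at, -0.59 to 0.16 for Cs 1396453_at, -0.05 to 0.11 for Idh1 1369954_at, -0.05 to 0.17 for Idh1 1394886_at, -0.07 to 0.05 for Mdh1 1367653_a_at and -0.06 to 0.03 for Suclg1. The called members numbered 11 in every such fit of aTX against ctr, 10 to 11 in aTX against sTX and 2 to 4 in sTX against ctr, where Cs 1369967_at was lost without sTX 1, sTX 2, ctr 2, ctr 3 or ctr 4 (largest adjusted p 0.0849). Over all 31042 probe sets, these fits called 12530 to 12779, 10442 to 10782 and 4441 to 5392 in the same order of comparisons.

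With the replicate number as a block, 11, 10 and 3 members were called for aTX against ctr, aTX against sTX and sTX against ctr. Over all 31042 probe sets, 12993, 11037 and 5302 were called in the same order. In 0 of 15 same-numbered pairs did the deviations of the arrays correlate above 0.1, so the numbers were not taken as pairs.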
